A study of Rattus norvegicus with 9 samples.

Results

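Potassium channel genes were examined in rat ventral spinal cord, taken on embryonic day 14, on 9 Affymetrix arrays, each hybridised with total RNA of 1 pool of 5 embryos. The members are all probe sets that the platform annotation pairs with 1 gene symbol beginning with Kcn and a further letter, which takes in pore-forming subunits and the auxiliary Kcnab, Kcne, Kcnip and Kcnmb subunits. This gave 126 probe sets of 75 genes, out of 31042 probe sets and 14217 genes with 1 symbol. A probe set is a group of short probes that together give 1 intensity for a transcript, here on the linear scale the authors deposited.

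The mutant group held 4 pools of embryos positive for human SOD1 with the G93R mutation, titled with the name Roth. The wild-type group held 4 pools positive for unmutated human SOD1, titled with the name Chan. SOD1 codes for a superoxide dismutase, and its mutations cause a hereditary amyotrophic lateral sclerosis, in which motor neurons die. The negative control was a single pool titled SDneg; its description calls it a negative control yet also speaks of positive embryos. The labels do not say which promoter drives either transgene, and mutation, rat line and insertion site cannot be told apart in these groups. The titles of replicates 2 to 4 in both transgenic groups carry the tag le2, which replicate 1 of each and the control lack; its meaning is not stated. Whole ventral cord was used, so fewer cells of a type and less RNA per cell cannot be told apart.

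Potassium channels let potassium leave or enter a cell and so set its resting potential and end each action potential. Voltage-gated alpha subunits assemble in fours around a pore, Kcnj channels pass current best inward, Kcnk channels carry a steady leak, and other families open on calcium or sodium. Auxiliary subunits change the speed, the surface delivery or the calcium response of the pore: Kv4 channels, which carry the fast A-type current of neurons, form complexes with Kcnip proteins and with the dipeptidyl peptidase relatives Dpp6 and Dpp10. As neurons mature, the set of potassium channels they make grows, and with it the ability to fire in trains.

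Each gene of a marker or partner list, here and below, was taken by its probe set with the highest mean log2 value. All 9 arrays carried strong signal of neurons: the 12 pan-neuronal marker genes all lay above the filter on dim probe sets, a mean intensity of about 17.3. Of 7 measured motor neuron genes 6 did, and the summed intensity of all 7 was 3386 to 4831 in mutant pools, 3041 to 3828 in wild-type pools and 3194 in the control. Among markers of other cell types and tissues, 0 of 6 blood genes, 0 of 7 microglia and macrophage genes and 1 of 12 cartilage and mesenchyme genes lay above the filter, against 7 of 10 for neural progenitors and radial glia, 3 of 8 for skeletal muscle, 3 of 9 for endothelium and pericytes and 3 of 8 for sensory ganglia. The filter uses the mean of all arrays, so it can miss signal in a single pool. The summed intensity of the 6 blood genes was 18.0 to 129.7 in mutant pools, 9.81 to 39.97 in wild-type pools and 33.8 in the control. In mutant replicate 3 the globin genes Hbe1 and Hbz were 94.5 and 15.5, and in all other pools at most 11.6 and 0.863. The part of blood in the channel values of that pool was not tested. The array medians were 31.0 to 33.9. The beta-actin 3'/5' ratio, which rises as RNA degrades, was 6.98 to 7.98 in mutant pools, 8.19 to 19.2 in wild-type pools and 6.66 in the control. The mutant and wild-type pools thus did not overlap in this ratio (exact two-sided permutation p = 0.0286), and wild-type replicate 2 had the highest value. The GAPDH 3'/5' ratio was 2.492 to 2.587 in mutant pools, 2.585 to 3.561 in wild-type pools and 2.680 in the control. In that ratio the groups overlapped slightly (exact two-sided permutation p = 0.0571).

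Of the 126 potassium channel probe sets, 49 lay above the filter, which is 38.9%, while 63.8% of all probe sets with 1 symbol did. A list of 30 genes restricted to other organs, such as milk, sperm and pancreas genes, had 3 above it, or 10%. That is a share of genes, each by its highest probe set, so the like count of members is the one by gene, 37 of 75. At a stricter filter, the 60th percentile of all probe sets in place of the 40th, 15.9% of the members remained, 20 probe sets, against 45.2% of probe sets with 1 symbol. By gene, 37 of 75 had at least 1 probe set above the filter and 38 had none. The brightness of a probe set also depends on its probes, so intensities are compared between pools and not between genes. Just inside the filter lay probe sets of Kcne2 and Kcns3, with means of 17.9 and 18.7, and just outside it those of Kcnj4 and Kcnq3, with means of 18.4 and 17.8; the filter uses the mean of log2 values, so the order of plain means can differ.

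The families differed in how many of their genes gave signal, where a gene counts if any of its probe sets passed. By probe set, 5 of 6 lay above the filter for Kcnd and 5 of 10 for Kcnip. For Kcna, Kcnb and Kcnc together it was 8 of 19, and for Kcnj 6 of 26. All 3 Kv4 alpha subunit genes (Kcnd1, Kcnd2, Kcnd3) and all 4 Kcnip genes had a probe set above the filter. So did 7 of 10 genes of the delayed rectifier and shaker-type families Kcna, Kcnb and Kcnc, 5 of 8 Kcnh genes and 2 of 3 Kcnab genes. Among inward rectifiers it was 3 of 15 genes (Kcnj6, Kcnj11 and Kcnj14), among the leak channels 4 of 11 (Kcnk2, Kcnk3, Kcnk6 and Kcnk10), and among the electrically silent Kcng, Kcns and Kcnv subunits 2 of 7 (Kcns3 and Kcnv1). Kcnq5 alone of 3 Kcnq genes, Kcnn1 alone of 3 Kcnn genes, and Kcne2 and Kcne4 of 4 Kcne genes were above it. Kcne2 passed on 1386770_x_at alone, at a mean of 17.9, while its other probe sets had means of 7.13 and 1.36. Genes with no probe set above the filter included both neuronal channels and channels of other cells. Among the former were Kcna1, a channel of myelinated axons, Kcna3, Kcnb2, the G protein-gated inward rectifier subunits Kcnj3 and Kcnj9, the leak channel Kcnk9, Kcnn3, and Kcnq3, of the muscarine-sensitive current. Among the latter were Kcnj10, the inward rectifier of mature glia, Kcnj8, which pairs with Abcc9 in pericytes, Kcnn4 of blood cells, Kcnmb1 of smooth muscle, and Kcne1 and Kcnq1, which form a slow cardiac current. A probe set at or below the filter does not show that its transcript is absent.

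**Figure D1:**
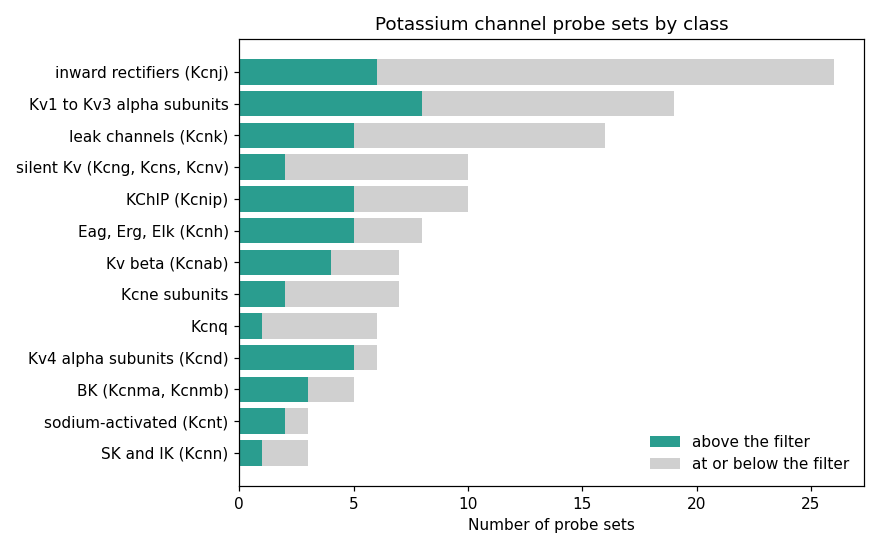
Number of potassium channel probe sets in each family, with those above the filter in green and those at or below it in grey. The Kcnj family has 26 probe sets, 6 of them above the filter, and the Kv4 family 6, 5 of them above.

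The 12 probe sets with the highest means covered 11 genes. The highest of the 9 pools was under 1.5 times the lowest at 6 of them and above that at the other 6, with ratios from 1.20 for Kcnd2 to 2.32 for Kcnc1. Kcnd2 (1379863_at), a pore of the A-type current, was 242.0, 251.8, 232.9 and 209.9 in mutant replicates 1 to 4, 232.1, 238.7, 238.9 and 245.3 in wild-type replicates 1 to 4 and 214.4 in the control. The groups overlapped, with an SD of 5.36 among the wild-type and 17.9 among the mutant pools. Kcnmb4 (1387318_at), the beta subunit of the large-conductance calcium-activated channel in neurons, was 240.3, 239.9, 246.8 and 236.3 in mutant pools, 249.2, 273.2, 266.3 and 221.1 in wild-type pools and 241.1 in the control. The mutant pools lay within the wild-type range. Kcnip1 (1394097_at), a calcium-binding partner of Kv4 channels, was 577.3, 510.0, 492.5 and 500.0 in mutant pools, 495.3, 430.1, 599.3 and 441.8 in wild-type pools and 441.4 in the control. These values overlapped as well.

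Kcnj14, an inward rectifier described in motor neurons, was 212 ± 26.7 in mutant pools, 205 ± 15.6 in wild-type pools (SD, n = 4 each) and 195 in the control. Kcnab1 (1378738_at), a cytoplasmic beta subunit that speeds inactivation, was 283 ± 58.9, 276 ± 22.2 and 312 in the same order. Kcnc1, a channel of fast-spiking neurons, was 195 ± 65.7, 189 ± 21.6 and 179, and its mutant pools ranged from 119.4 in replicate 2 to 277.6 in replicate 4. Kcna6 (1393124_at), a shaker-type alpha subunit, was 153 ± 11.8, 173 ± 51.1 and 133, with wild-type replicate 2 at 246.3. Kcnh2, the Erg channel, was 123 ± 24.0, 116 ± 28.1 and 150.0, and Kcnk2, a leak channel opened by stretch and lipids, 106 ± 17.4, 90.0 ± 7.67 and 98.8. Apart from Kcnj14, these probe sets were among those with the wider spread. At each of these 6 probe sets the mutant and wild-type pools overlapped. Among families with dimmer probe sets, the highest were Kcnq5 (1379510_at), of the muscarine-sensitive current, at 49.1 ± 10.5, 44.4 ± 4.51 and 39.1, Kcne4, an inhibitory subunit, at 25.6 ± 9.67, 27.4 ± 6.15 and 28.1, and Kcnv1, a silent subunit, at 22.3 ± 4.27, 20.9 ± 3.22 and 21.5.

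**Figure D2:**
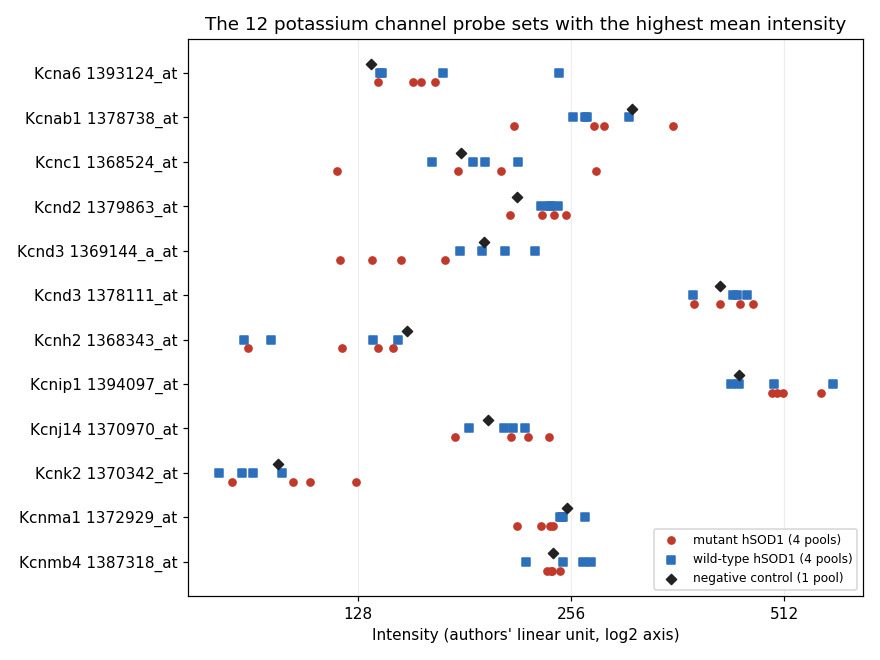
Intensity (log2 axis) of the 12 potassium channel probe sets with the highest mean, in alphabetical order, with 1 point per pool. Mutant and wild-type points mix in 10 of the 12 rows; Kcnd3 1369144_a_at and Kcnma1 1372929_at are the rows where they do not.

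Between mutant and wild-type hSOD1, which asks how the embryonic cord differs with the kind of transgene, no potassium channel probe set passed. Limma called 0 of 49 members at an adjusted p of 0.05, and 0.0161% of all 18625 probe sets tested; log2 differences are of intensity plus a pseudocount of 8.25, which makes the differences of dim probe sets smaller. The smallest adjusted p of a member was 0.757. At an unadjusted p of 0.05 stood 3 members, or 6.12%, against 4.93% of all. As 1 of the 3, Kcnip3, passed the filter only through the pools where it was high, nothing is read from this share. Of the 49 members, 27 were higher and 22 lower in mutant pools, with a median log2 difference of 0.04 against 0.01 over all tested. The median size of the difference, whatever its sign, was 0.12 for members and 0.10 for all. The 95% interval of the difference, in intensity plus pseudocount, lay within a factor of 2 in both directions at 47 of the 49. The others were probe sets of Kcnip3 and Kcnc4.

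**Figure D3:**
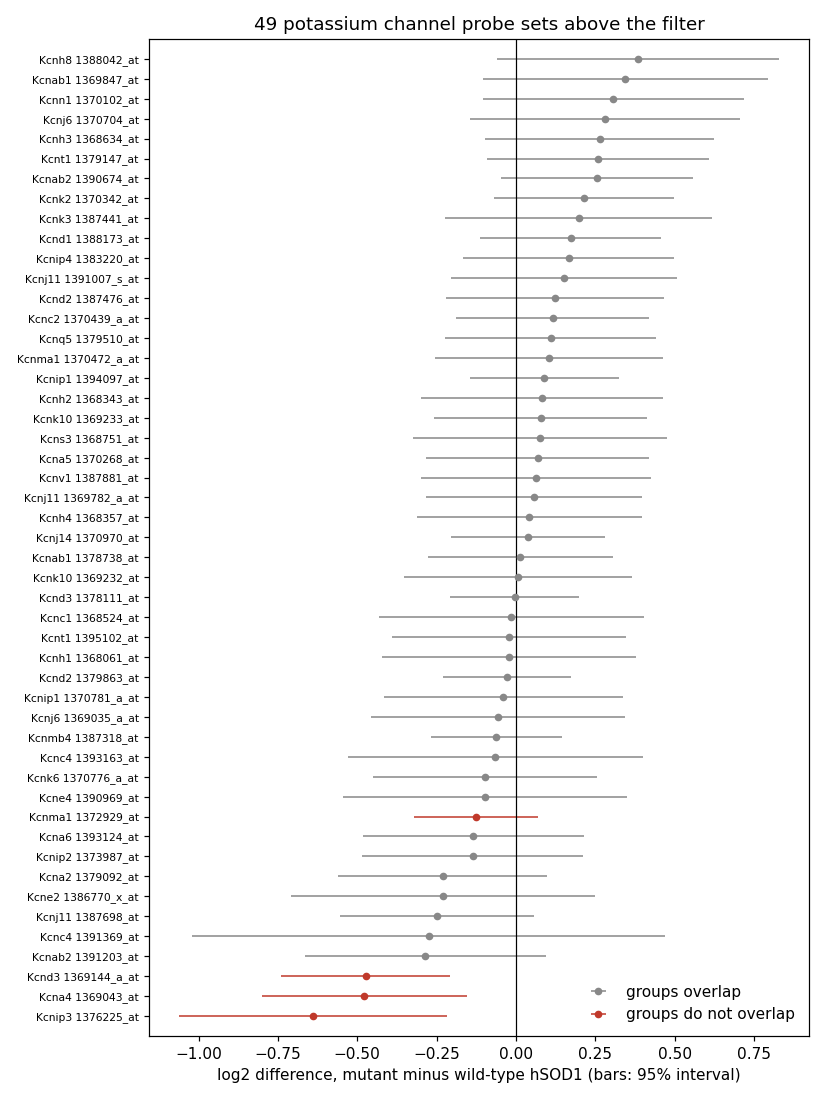
Difference in log2 intensity, mutant minus wild-type hSOD1, for the 49 potassium channel probe sets above the filter, with 95% intervals from limma. The 4 red probe sets, whose pools do not overlap between the groups, are all lower in mutant pools, and the estimates run from −0.64 to 0.38.

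The pools did not overlap at 4 members, all lower in mutant pools. That is 8.16% of the members, against 1.24% of all probe sets tested, and 0 members were higher without overlap, against 1.71% of all. One of the 4, Kcnip3, passed the filter only through the pools where it was high, so nothing is read from this share. With no filter, 5 of the 126 members were lower without overlap, or 3.97% against 1.38% of all 31042, and 2 were higher, or 1.59% against 1.78%. Kcnd3 (1369144_a_at), a Kv4 pore, was 133.9, 147.2, 120.7 and 169.7 in mutant replicates 1 to 4, 191.5, 227.4, 178.1 and 206.6 in wild-type replicates 1 to 4 and 192.7 in the control. The highest mutant pool lay below the lowest wild-type pool, and the control lay among the wild-type pools. The log2 difference was −0.47 (SE 0.123, 95% interval −0.74 to −0.21, limma adjusted p = 0.757).

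Another Kcnd3 probe set gave a different picture. On 1378111_at the intensities were 415.2, 381.8, 442.8 and 461.8 in mutant pools, 433.8, 379.9, 453.9 and 438.9 in wild-type pools and 414.7 in the control, which overlap throughout. Its log2 difference was −0.0044, with a 95% interval from −0.21 to 0.20. The log2 ratio of 1369144_a_at to 1378111_at within an array was −1.63, −1.38, −1.88 and −1.44 in mutant pools, −1.18, −0.74, −1.35 and −1.09 in wild-type pools and −1.11 in the control. The ratio was chosen after the values were seen, and it shows only that the probe sets did not move alike; which transcripts each detects was not analysed here. The third Kcnd3 probe set, 1369145_a_at, lay below the filter at 13.5 ± 6.35 in mutant and 14.2 ± 10.8 in wild-type pools.

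The promoter of Kcnd3 is shown because this gene had the smallest p among the members and its window lies just outside the annotated gene. It is the 250 bases before the start in RefSeq, build GRCr8, chr2:195626066-195626315, plus strand, with capitals marking a match to the GC box.
Kcnd3: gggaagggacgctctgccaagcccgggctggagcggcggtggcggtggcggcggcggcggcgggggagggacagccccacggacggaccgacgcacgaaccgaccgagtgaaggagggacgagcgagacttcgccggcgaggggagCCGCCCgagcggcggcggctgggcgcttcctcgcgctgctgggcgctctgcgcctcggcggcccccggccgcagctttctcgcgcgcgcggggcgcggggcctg
This stretch has 79.6% G and C, 43 CpG pairs and 1 GC box, GGGCGG, here on the minus strand. It holds neither TATAAA nor TCAGCACC, a part of the site of the neuronal repressor REST. Windows were found for 52 of the 75 genes, 58 windows in all, each searched on both strands. GGGCGG occurred in 55.2% of these, against 52.4% of windows of all genes on the array with 1 symbol, and TATAAA in 3.45% against 8.04%. TCAGCACC occurred in 3.45% against 1.46%. The median G and C content was 62.0% against 58.8%. Genes with a probe set above the filter had GGGCGG in 54.8% of 31 windows and those with none in 55.6% of 27. TATAAA and TCAGCACC were each in 0 of the 31 and in 2 of the 27, or 7.41%. These are matches of letters and not known sites.

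Kcnip3 (1376225_at) codes for a calcium-binding protein, also known as calsenilin or DREAM, that joins Kv4 channels and can act as a repressor of transcription. It was 12.5, 10.4, 15.7 and 15.4 in mutant pools, 35.0, 21.8, 30.4 and 17.4 in wild-type pools and 21.5 in the control. The mutant pools all lay below the wild-type pools, but by little at wild-type replicate 4, and all below the intensity of the filter. The log2 difference was −0.64 (SE 0.195, 95% interval −1.06 to −0.22, limma adjusted p = 0.929). Its mean over all 9 arrays was 20.0. The other Kcnip3 probe set, 1387421_at, was dim at 4.98 ± 5.72 in mutant and 2.86 ± 3.72 in wild-type pools.

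Kcna4, a shaker-type alpha subunit that inactivates fast, was 20.5, 28.6, 24.3 and 19.9 in mutant pools, 34.6, 35.6, 39.4 and 32.5 in wild-type pools and 21.5 in the control. Here the control lay among the mutant pools and below all wild-type pools. The log2 difference was −0.48 (SE 0.150, 95% interval −0.80 to −0.16, limma adjusted p = 0.929), on the gene's 1 probe set. Kcnma1 (1372929_at), the pore of the large-conductance calcium-activated channel, was 214.4, 238.8, 231.8 and 241.0 in mutant pools, 268.1, 246.9, 249.4 and 248.3 in wild-type pools and 252.5 in the control. The gap between the groups was small, and the log2 difference was −0.13 (SE 0.0903, 95% interval −0.32 to 0.07, limma adjusted p = 0.929). Another Kcnma1 probe set, 1370472_a_at, differed by 0.10 with overlapping pools.

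The actin ratio also did not overlap between these groups. The 4 probe sets were chosen for their lack of overlap, so this shared split tells nothing about the ratio's part in them. With the log2 actin ratio as a covariate the log2 differences were −0.37 for Kcnd3, −0.72 for Kcnip3, −0.45 for Kcna4 and −0.14 for Kcnma1. Without wild-type replicate 2, the pool with the highest ratio, they were −0.41, −0.69, −0.48 and −0.14. The limma adjusted p of each was then 1.00 with the covariate and 0.999 without the pool. Of the 6 motor neuron genes above the filter, 5 were higher on average in mutant pools and 1 lower, with a median log2 difference of 0.26. The 3 genes of the sensory ganglion list above the filter, Pou4f1, Ret and Runx1, were all higher on average, with a median of 0.18. Whether these 3 mark ganglion tissue in ventral cord was not tested. The summed intensity of all 8 measured sensory ganglion genes was 851 to 1079 in mutant and 796 to 871 in wild-type pools. Most of this sum came from Ret, at 619 ± 114 in mutant and 565 ± 36.6 in wild-type pools. Among the sensory ganglion genes below the filter, Avil, Drgx and Runx3 were lower on average in mutant pools, and Prdm12 and Tlx3 higher. Of the 7 progenitor and radial glia genes above the filter, 2 were higher and 5 lower, with a median of −0.049, and the sum over all 10 measured was 1156 to 1692 against 1234 to 1659. One of these, the glutamate transporter gene Slc1a3, was lower in mutant pools without overlap, at 78.6 to 89.8 against 102.3 to 120.5 (log2 difference −0.38, limma adjusted p = 0.929). It was singled out after its values were seen. The part of these cells in the channel differences was not tested.

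**Figure D4:**
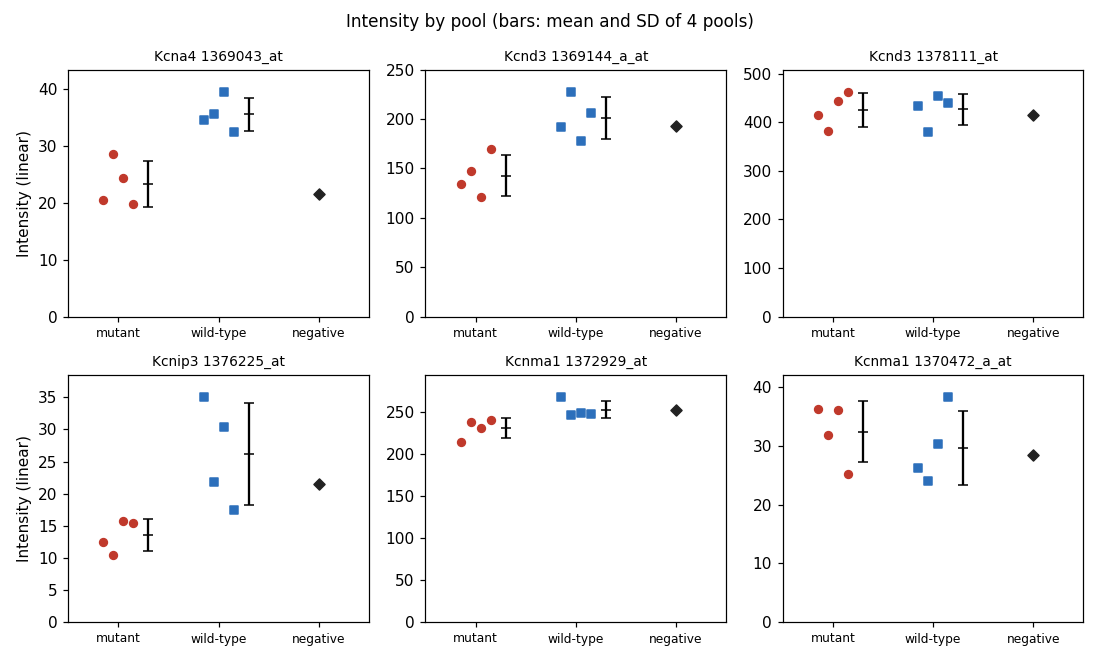
Intensity in each pool for 2 probe sets of Kcnd3, 2 of Kcnma1 and 1 each of Kcnip3 and Kcna4; bars are the mean and SD of 4 pools, and the control is a single point. Kcnd3 1369144_a_at is lower in all mutant pools, from 120.7 to 169.7 against 178.1 to 227.4, while Kcnd3 1378111_at overlaps.

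The next members by p did not separate the groups. Higher on average in mutant pools were Kcnh8, an Elk-type channel, at 23.2 ± 4.03 against 16.4 ± 6.54 in wild-type pools, and Kcnh3, of the same family, at 52.0 ± 3.79 against 42.9 ± 11.8. Kcnn1, a small-conductance calcium-activated channel, was 68.1 ± 6.84 against 55.4 ± 18.8, with wild-type replicate 2 at 33.3. Without that pool its log2 difference went from 0.31 to 0.12. A separate fit with the actin covariate, on all mutant and wild-type pools, gave −0.042. Kcnt1 (1379147_at), a sodium-activated channel, was 30.8 ± 5.50 against 24.3 ± 3.58, Kcnk2 (1370342_at) 106 ± 17.4 against 90.0 ± 7.67, and Kcnab1 (1369847_at) 21.9 ± 3.23 against 16.0 ± 5.94. Kcnj11 (1387698_at), the pore of the ATP-sensitive channel, was 35.7 ± 3.36 against 44.2 ± 6.49. The limma adjusted p of each was 0.929. The wild-type means of Kcnh8 and Kcnab1 (1369847_at) lay below the filter intensity of about 17.3. Both passed the filter only through the pools where they were high, so nothing is read from their rank.

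Probe sets of 1 gene did not always share the sign of their difference. Of the 11 genes with at least 2 probe sets above the filter, 4 had all of them on the same side between mutant and wild-type pools and 7 did not. At each such probe set of the 7 the limma interval included both signs. Kcnd3, at −0.47 and −0.0044, counted among the 4. The share expected by chance was not computed, so nothing is read from this count. Kcnab2, a beta subunit that carries Kcna channels into axons, was 77.1 ± 8.38 against 63.6 ± 10.3 on 1390674_at and 19.4 ± 4.45 against 25.4 ± 4.86 on 1391203_at. The log2 differences were 0.25 and −0.29, with overlapping pools in both. The 3 Kcnj11 probe sets above the filter differed by −0.25, 0.06 and 0.15, the last (1391007_s_at) of a kind that can match more than 1 gene, and the pair of Kcnj6, a G protein-gated inward rectifier, by −0.06 and 0.28. The other Kcnab1 probe set differed by 0.01, and the other Kcnt1 probe set above the filter by −0.02. Of 31 genes with several probe sets, 5 had all of them above the filter, 17 some and 9 none.

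Below the filter, 3 probe sets had pools that did not overlap, named here after their values were seen. Of the 77 members there, 2 were higher in mutant pools, or 2.60% against 1.88% of all 12417 probe sets at or below the filter, and 1 was lower, or 1.30% against 1.59%. Kcnip4 (1370595_a_at), a Kv4 partner that slows inactivation, was 14.6, 17.6, 15.7 and 14.1 in mutant pools, 8.4, 7.8, 8.7 and 10.7 in wild-type pools and 6.7 in the control. Its brighter probe set 1383220_at overlapped, at 92.5 ± 17.6 against 81.3 ± 13.8. Kcnq5 (1379212_at) was 12.3 to 16.4 in mutant and 3.0 to 9.7 in wild-type pools, and its probe set 1379510_at overlapped. Kcnq5 on 1391314_at, also below the filter, went the other way on average, at 11.7 ± 9.86 in mutant against 24.1 ± 12.7 in wild-type pools, with overlapping pools. Kcnab2 (1397663_at) was 0.6 to 1.4 in mutant and 1.7 to 7.9 in wild-type pools. In a fit with no filter, limma called 0 of the 126 members, with 7 at an unadjusted p of 0.05, where 5.33% of all 31042 stood.

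The comparison with the negative control asks what goes with carrying human SOD1 at all, and rests on 1 control pool. No member passed here either. Limma called 0 of 49 with both transgenes together, with mutant hSOD1 alone and with wild-type hSOD1 alone, where it called 0% of all 18625 in each. At an unadjusted p of 0.05 stood 0 members for both transgenes, against 3.12% of all. For mutant hSOD1 it was 2, or 4.08%, against 2.29%, and for wild-type hSOD1 also 2, or 4.08%, against 4.28%. All 8 transgenic pools lay above the control at 4 members, 8.16% against 9.19% of all, and below it at 4, 8.16% against 10.5%. With both transgenes 20 members were higher and 29 lower, with a median of −0.02 for members and for all. The interval, again in intensity plus pseudocount, lay within a factor of 2 at 44 of 49. The control lacks the le2 tag that 6 of the 8 transgenic pools carry; with the tag as a covariate limma again called 0 members, and the log2 differences of Kcnk6 and Kcnj6 (1369035_a_at), given next, became −0.66 and −0.68.

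Nearest to the threshold was Kcnk6 (1370776_a_at), a leak channel found mostly outside neurons. It was 14.4, 19.6, 19.8 and 16.0 in mutant pools, 16.8, 23.0, 20.2 and 17.0 in wild-type pools and 29.4 in the control, above all 8 transgenic pools. The log2 difference of both transgenes from the control was −0.51 (SE 0.244, 95% interval −1.03 to 0.02, limma adjusted p = 1.00). Kcnt1 (1379147_at) averaged 27.5 ± 5.52 over 8 transgenic pools (SD) against 39.9 in the control, Kcnab2 (1391203_at) 22.4 ± 5.38 and 32.4, and Kcnh2 120 ± 24.4 and 150.0. In each of these all 8 pools lay below the control. Kcnj6 (1369035_a_at) was 40.3 ± 9.42 against 56.2, a log2 difference of −0.43, but mutant replicate 4 lay above the control at 59.7. On the higher side, Kcnc4 (1393163_at), an A-type alpha subunit, was 46.6 ± 15.6 against 30.4, with wild-type replicate 2 at 82.6. Kcnip4 (1383220_at) was 86.9 ± 15.8 against 69.7, and Kcna4 29.4 ± 7.30 against 21.5. Limma's adjusted p was 1.00 for each of them. Other probe sets of these genes above the filter differed less from the control. The log2 differences were −0.05 for Kcnt1 (1395102_at), 0.04 for Kcnab2 (1390674_at), 0.21 for Kcnj6 (1370704_at) and −0.07 for Kcnc4 (1391369_at). Below the filter, all 8 transgenic pools again lay below the control for Kcnk6 (1387264_at) and above it for Kcnip4 (1370595_a_at).

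The single-transgene comparisons share the control array with each other. Against it, the 2 members at an unadjusted p of 0.05 with mutant hSOD1 were Kcnd3 (1369144_a_at), with a log2 difference of −0.42, and Kcnk6, with −0.56. With wild-type hSOD1 the same 2 differed by 0.05 and −0.46. The 2 members with wild-type hSOD1 were Kcna4, with 0.55, and Kcnt1 (1379147_at), with −0.57, and mutant hSOD1 gave 0.07 and −0.32 for them. The limma adjusted p was 1.00 for both with mutant and 0.980 for both with wild-type hSOD1. For Kcnd3 the control stood near the wild-type pools and for Kcna4 near the mutant pools.

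**Figure D5:**
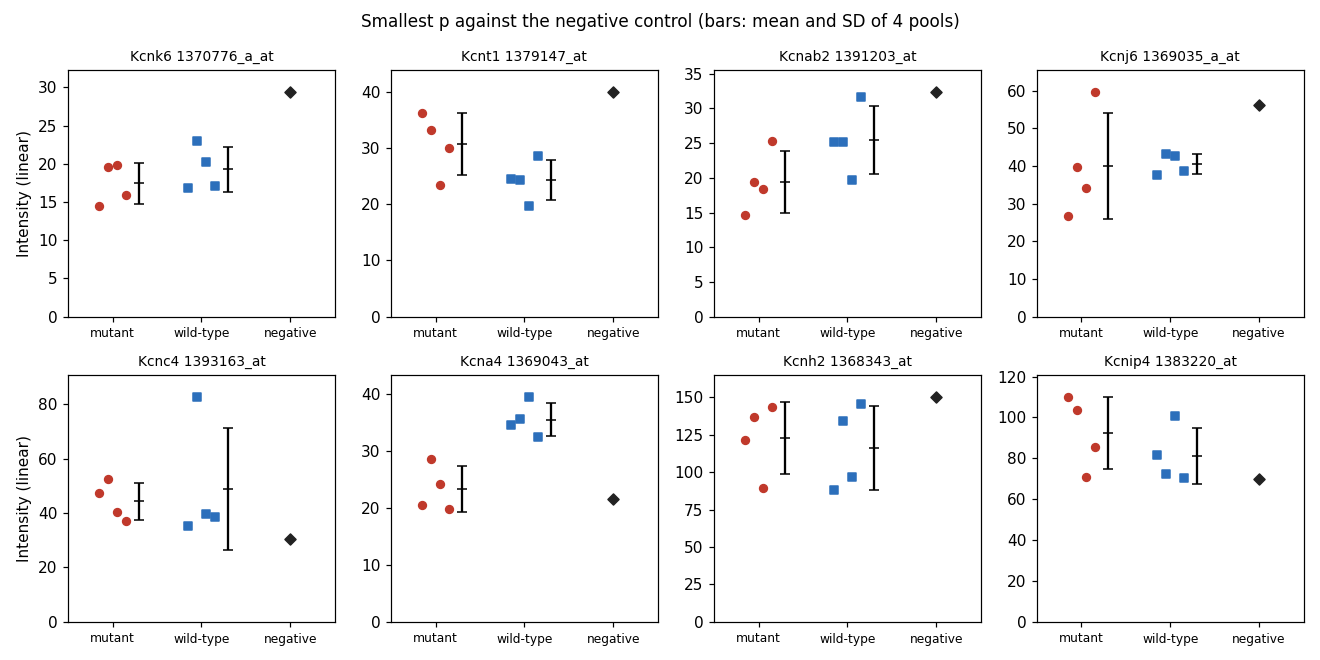
Intensity in each pool for the 8 potassium channel probe sets with the smallest p against the negative control; bars are the mean and SD of 4 pools. The control lies above all 8 transgenic pools for Kcnk6, Kcnt1, Kcnab2 and Kcnh2, and below all of them for Kcnc4 and Kcnip4.

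Genes that work with potassium channels or move potassium, without being members, were taken from a list of 44, of which 35 were measured and 27 lay above the filter. Limma called 0 of them between mutant and wild-type pools and 0 against the control. Between mutant and wild-type pools 12 were higher and 15 lower, with a median log2 difference of −0.0052, and 2 of the 27, or 7.41%, had an unadjusted p under 0.05, against 4.93% of all probe sets tested. These were Ank2, an ankyrin that anchors membrane proteins, at 1295 ± 56.0 in mutant and 1491 ± 146 in wild-type pools, and Slc12a7, a potassium-chloride cotransporter, at 128 ± 11.1 against 106 ± 11.1. Next came the scaffold gene Dlg1, at 176 ± 20.5 against 149 ± 18.0, and the pacemaker channel gene Hcn3, at 41.8 ± 6.96 against 33.3 ± 2.57. The Kv4 partners Dpp6 and Dpp10, named for their place in that complex, were 951 ± 63.6 against 1031 ± 175 and 90.3 ± 14.9 against 109 ± 24.3, with overlapping pools. Abcc8, which completes the ATP-sensitive channel with Kcnj11, was 49.6 ± 2.88 against 48.7 ± 7.90.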

How the data were processed

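The values are the intensities the authors deposited, linear and 1 for each probe set of an array; their summarisation software was not given in the sources used here. The mean after trimming 2% at each end was about 150.05 in every array, so the arrays had been scaled, and no further normalization was added. All 9 columns were used. The number of arrays limits the precision. Intensities were taken to log2 after adding 8.25, the 25th percentile of all values. Of 31042 probe sets without the 57 control probe sets, a filter kept those with a mean log2 value over all 9 arrays above the 40th percentile, and these 18625 were tested with limma 3.58.1 in R 4.3.3 (lmFit, eBayes with an intensity trend, Benjamini-Hochberg over all tested). Mutant and wild-type pools were compared on 8 arrays, the control in a fit of 9, where its single pool is assumed to vary like the others. Per the labels the pools are biological replicates, and p-values measure the spread between pools. All 126 members had an Entrez identifier in the gene table, with 0 symbols changed. The code was tested on simulated data.

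Members, gene lists and tests were chosen with earlier results of these data known. Named were the 12 members with the smallest p between mutant and wild-type pools, those without overlap, the 8 with the smallest p against the control, the 12 with the highest mean and the highest of each family, and, of the partner list, the 4 with the smallest p. The alternatives were other normalizations, pseudocounts, filters and variance models, covariates, leaving out each array, and a replicate block. Promoter sequences are from RefSeq, build GRCr8. Probe sequences were not used here.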

Additional observations from a re-analysis of the deposited data

Results flagged for a closer look

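In 3 of 58 checks (29 named probe sets in 2 groups of 4), 1 pool stood far from the other 3; chance gives about 1 in 20. Kcnab1 (1369847_at) was 7.22 in wild-type replicate 4, with the other wild-type pools at 17.7 to 19.8. Kcnma1 (1372929_at) was 268 in wild-type replicate 1, with the others at 247 to 249. Kcnc4 (1393163_at) was 82.6 in wild-type replicate 2, with the others at 35.1 to 39.7; this pool also had the highest actin ratio, 19.2, and its part in the value was not tested.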

How the results depend on the processing

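The count of potassium channel probe sets past the threshold was 0 in limma under all 19 alternatives for mutant against wild-type hSOD1. There the lowest adjusted p of a member was 0.318, and 1 to 7 members had an unadjusted p under 0.05. With no filter these were 7 of 126, where 5.33% of all 31042 stood. For the other alternatives the share over all probe sets is not given, so nothing is read from these counts. The number of members past the threshold was also 0 under all 17 alternatives of each of the 3 comparisons with the control. The number above the filter was 20 with a filter at the 60th percentile. Of the 21 named differences, 20 kept their sign under every alternative that could be fitted; Kcnn1 turned to −0.042 with the actin ratio as a covariate. Kcnd3 (1369144_a_at) ranged from −0.56 to −0.37, Kcnip3 from −0.83 to −0.34 and Kcna4 from −0.58 to −0.29. The labels do not pair the pools, and same-numbered pools deviated together with r of 0.12, 0.09, −0.07 and 0.20, so the numbers were not taken as pairs. With a replicate block 0 members passed, and the Kcnd3 adjusted p was 0.318. Means of dim probe sets depend on background, which limits what can be said of members below the filter.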
